A study of Bos taurus with 11 samples.

Results

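The lysosomal proteases covered here are 8 cathepsins (CTSA, CTSB, CTSC, CTSD, CTSH, CTSK, CTSS and CTSZ) and legumain (LGMN). Their probes were found by gene symbol in the array annotation, which gave 23 probes for the 9 genes, of 43653 distinct probes on the array. Total RNA of peripheral blood mononuclear cells (PBMC), the lymphocytes and monocytes of blood, was hybridised to 1-colour bovine oligonucleotide arrays, with 1 female animal per array by the numbered sample titles. There were 5 arrays of Ladakhi cattle, the native cattle of a high-altitude region, and 6 arrays of Sahiwal cattle, kept at low altitude and labelled basal. Neither age nor any treatment is given in the labels, and breed and altitude coincide throughout. The Ladakhi slides (4 and 1 arrays) were read on an Agilent scanner and the Sahiwal slides (2 and 4 arrays) on an Axon GenePix scanner, each with its own version of the extraction software. Breed, altitude, slide, scanner and software version therefore cannot be told apart in any comparison below.

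Lysosomal proteases are made as inactive precursors, carried to the lysosome largely by mannose 6-phosphate receptors, and activated there by acid pH and by cutting one another. Most cathepsins are cysteine proteases, while CTSD is an aspartic protease and CTSA a serine carboxypeptidase. In blood they are abundant in monocytes, and in antigen-presenting cells they degrade the invariant chain and cut proteins into peptides for MHC class II molecules. Cystatins hold the cysteine cathepsins and legumain in check.

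The sequences below are those of the 3 members that hold a polyadenylation signal, shown because all 3 were among the 8 measured in both breeds. Each line gives 30 bases of the 60-base probe, 5′ to 3′, and capitals mark the letters AATAAA, the usual form of that signal. The windows cover bases 31 to 60 of the CTSB probe, 26 to 55 of the CTSD probe and 29 to 58 of the CTSZ probe.
CTSB, A_73_115425: aggaatggctgccAATAAAaagcctctcct
CTSD, A_73_P375261: agttggcacgaaAATAAAgttgttcaggcc
CTSZ, A_73_117154: gcccaagtgatgAATAAAatgcacacttca
The letters were read on the strand of the probe, and 0 of the 15 members not measured in both breeds carried them. Over the array, 9.35% of all 43653 probes and 20.8% of the 4048 measured probes held these letters, as did 813 of the 7414 probes seen on all 6 Sahiwal and 0 Ladakhi arrays. The reverse complement was in 3.46% of all probes and in 0 members. The match is a description of the letters only.

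On the files' coordinates (HGSC Btau_3.1) the 3 CTSB probes lay on chromosome 8, the measured one at chr8:7465875-7465934 on the plus strand. The CTSA and CTSZ probes lay on chromosome 13, those of CTSC and CTSD on chromosome 29, those of CTSH on chromosome 21 and those of CTSK and CTSS on chromosome 3. The 3 LGMN probes are unmapped on that build. In 7 of the 8 mapped genes, the probe farthest downstream was well above background on the most arrays, or tied for the most, with CTSS as the exception. CTSD counts through a tie, and CTSK through 1 detected probe, seen in Sahiwal only. The share over the other genes of the array is not given, so the count only describes the members. No annotation of that build was used here, so exons and untranslated parts are not given.

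A level below is the log2 processed signal of a probe minus its array's 75th percentile over the 2705 probes well above background on all 11 arrays. A difference is Ladakhi minus Sahiwal on that scale, tested with limma over 17866 probes and adjusted by Benjamini-Hochberg, with 0.05 as the threshold. Measured probes are those that passed the scanner software's background test on no fewer than 4 arrays in Ladakhi and also in Sahiwal. Levels of different probes are not comparable, and a difference between probes of a gene serves only to compare the breeds. The Ladakhi arrays were the dimmer ones, with 4243 to 6608 of 43803 spots well above background, against 17517 to 20574 on the Sahiwal arrays. On each Ladakhi array 29127 to 32418 probes shared the array's lowest value, so probes at that value have no order among themselves. Other dim Ladakhi values lay above it without passing the background test. The lowest level well above background averaged -3.61 on the Ladakhi arrays and -8.24 on the Sahiwal arrays. It is called the detection limit below. Animal numbers are those of the scanner files.

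Of the 23 probes, 21 were well above background on all 6 Sahiwal arrays and 6 on all 5 Ladakhi arrays. Among those 21, 8 probes (38.1%) reached 4 or more Ladakhi arrays and 7 (33.3%) reached none. Over the 15099 probes of the array that were seen on all 6 Sahiwal arrays, these shares were 26.8% and 49.1%. The 8 measured probes belonged to 6 genes, CTSA, CTSB, CTSD, CTSH, CTSZ and LGMN. The genes CTSC, CTSK and CTSS had no measured probe. The other 2 probes, both of CTSK, were above background on 0 of 11 arrays. No member spot was saturated.

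**Figure D1:**
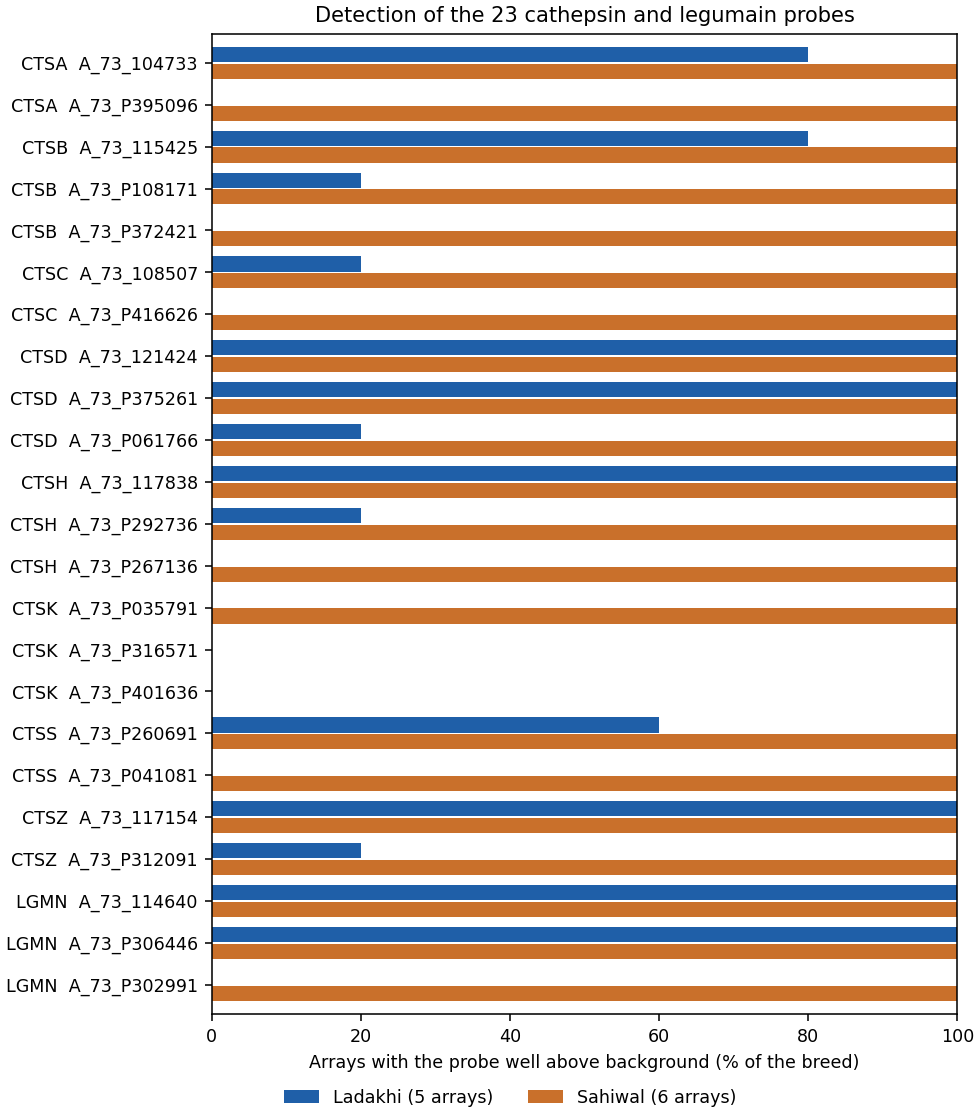
Share of arrays, in percent of each breed (5 Ladakhi, 6 Sahiwal), on which each of the 23 probes was well above background. The Sahiwal bars reach 100% for 21 probes, while the Ladakhi bars do so for 6.

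Among the 8 measured probes, those of CTSB and 1 of 2 for CTSD were lower in Ladakhi, and 0 were higher. The other 6 were not past the threshold. Over the 4048 measured probes of the array, 14.5% were lower and 18.2% higher, 32.7% in all. The median difference of the 8 was -0.25, with 6 negative and 2 positive, against a median of -0.02 over all measured probes. In 2 of the 8, every Ladakhi level lay below every Sahiwal level, which held for 9.54% of the 4048 measured probes. The reverse held for 0 of the 8 and for 12.1% of the 4048. Of the 17866 tested probes, 41.8% were called in either direction. The 13 members tested but not measured passed the filter through Sahiwal alone, so no count of calls is drawn from them and their values are given below with the Ladakhi detection limit.

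**Figure D2:**
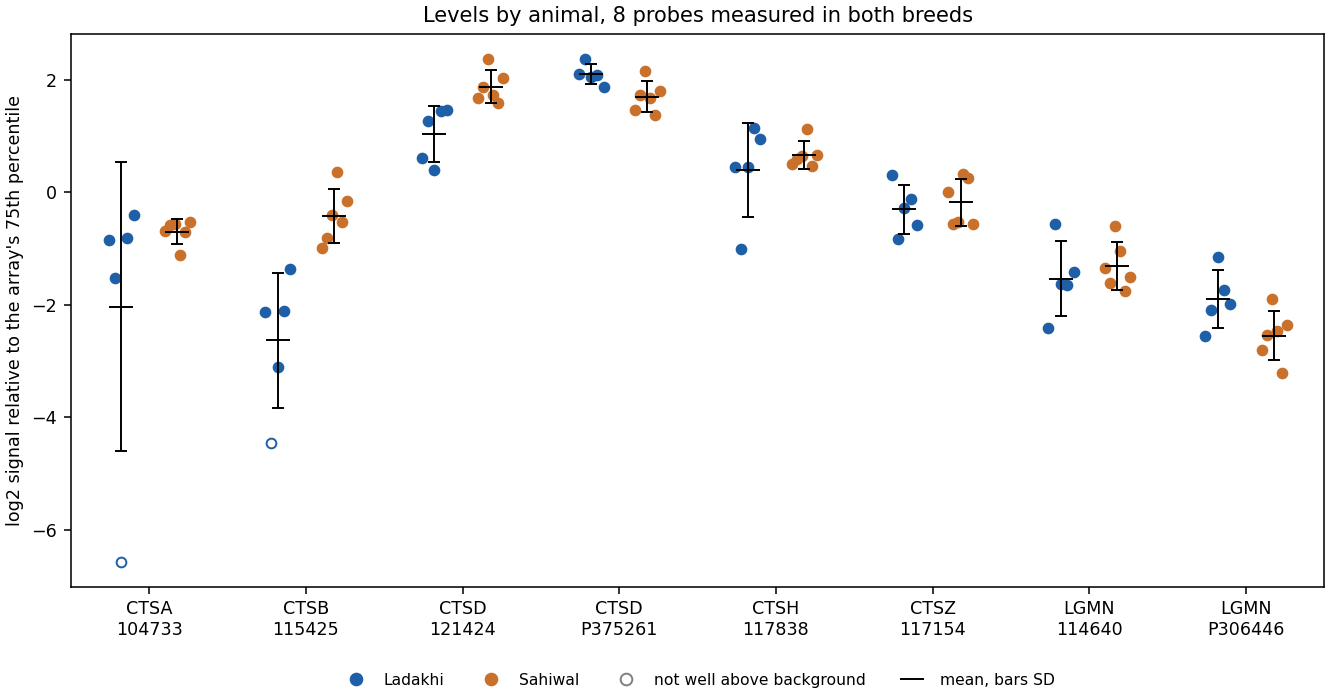
Level of the 8 measured probes by animal (log2 signal relative to the array's 75th percentile), Ladakhi in blue and Sahiwal in orange. Filled points are well above background, open points are not, and bars give the mean and SD. The breeds do not overlap for CTSB and for CTSD probe A_73_121424, and the open CTSA point at -6.57 is Ladakhi animal 3.

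CTSB, a cysteine protease that cuts both within proteins and from their carboxyl ends, had the largest difference of the measured members. On probe A_73_115425 the Ladakhi levels were -2.12, -4.46, -3.12, -2.10 and -1.36 in animals 1 to 5. The 6 Sahiwal animals gave -0.98, -0.81, -0.40, 0.36, -0.53 and -0.15 in animals 1 to 6. All 5 Ladakhi animals lay below all 6 Sahiwal animals, and Ladakhi animal 2, the lowest, was not well above background. CTSB averaged -2.63 ± 1.20 (SD, 5 animals) in Ladakhi, against -0.42 ± 0.48 (SD, 6 animals) in Sahiwal, a difference of -2.21 (SE 0.47, limma adjusted p = 0.00254), or 4.64-fold lower. With dim values raised to the detection limit of their array, the difference was -1.93 (adjusted p = 7.12e-05), and leaving out any 1 animal gave -2.53 to -1.76.

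The other 2 CTSB probes gave no measured difference. Probe A_73_P108171, at chr8:7465033-7465092, was above background on Ladakhi animal 1 alone, at -2.59, which was above each Sahiwal level (-4.79 to -3.50). Its difference was -0.29 (limma adjusted p = 0.642). The upstream probe A_73_P372421 reached 0 Ladakhi arrays. Its fitted difference of 0.90 had an adjusted p of 0.0293, but its Sahiwal mean of -6.81 lay under the Ladakhi limit and no direction is drawn.

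CTSS, the cysteine protease that removes the invariant chain from MHC class II in antigen-presenting cells, had 2 probes, neither of them measured in both breeds. Both entered the fit through Sahiwal, the brighter breed, so their levels are a description. Probe A_73_P260691, at chr3:21540853-21540912, gave -1.79, -2.03 and -1.99 in Ladakhi animals 1, 2 and 5, while animals 3 and 4 were not well above background (-4.45 and -5.73). In Sahiwal the levels were -0.58, -1.34, -1.11, 0.21, 0.18 and 0.43. The 3 detected Ladakhi animals thus lay below all 6 Sahiwal animals too. The difference of the means was -2.83, and -2.33 with dim values raised to the limit.

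The second CTSS probe, A_73_P041081 at chr3:21541125-21541184, was above background on 0 Ladakhi arrays and on all 6 Sahiwal arrays. Its Ladakhi values ran from -5.73 to -4.89 and are not well above background. Levels in Sahiwal were -1.81, -2.99, -2.18, -1.17, -0.84 and -1.44, each above the detection limit of every Ladakhi array (-4.26 to -3.03). The measured means were -5.25 in Ladakhi and -1.74 in Sahiwal. Against the Ladakhi detection limit, CTSS was at least 3.66-fold lower in Ladakhi. The limma adjusted p was 2.91e-05 on the values as measured, and 0.000190 with dim values raised to the limit, on which the bound is computed. As the filter was passed in Sahiwal alone, neither p is independent of the choice of probe. Such a bound takes, for each Ladakhi array, the higher of the detection limit and the probe's own value.

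CTSC, the dipeptidyl peptidase that activates granzymes and neutrophil serine proteases, reached 1 Ladakhi array on probe A_73_108507 (chr29:7577197-7577256). The level of Ladakhi animal 5 was -3.95, and the other 4 Ladakhi values, -5.73 to -4.75, were not well above background. The Sahiwal levels were -3.43, -2.90, -2.76, -2.24, -3.05 and -1.69. All Sahiwal animals lay above the 1 detected Ladakhi animal. The difference of the means was -2.36, and -0.91 with dim values raised. It is a description, since the probe entered the fit through Sahiwal and 4 of the 5 Ladakhi values are background. The second CTSC probe, A_73_P416626, reached 0 Ladakhi arrays, and its Sahiwal mean of -5.39 lay under the Ladakhi bound, so no fold can be given.

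**Figure D3:**
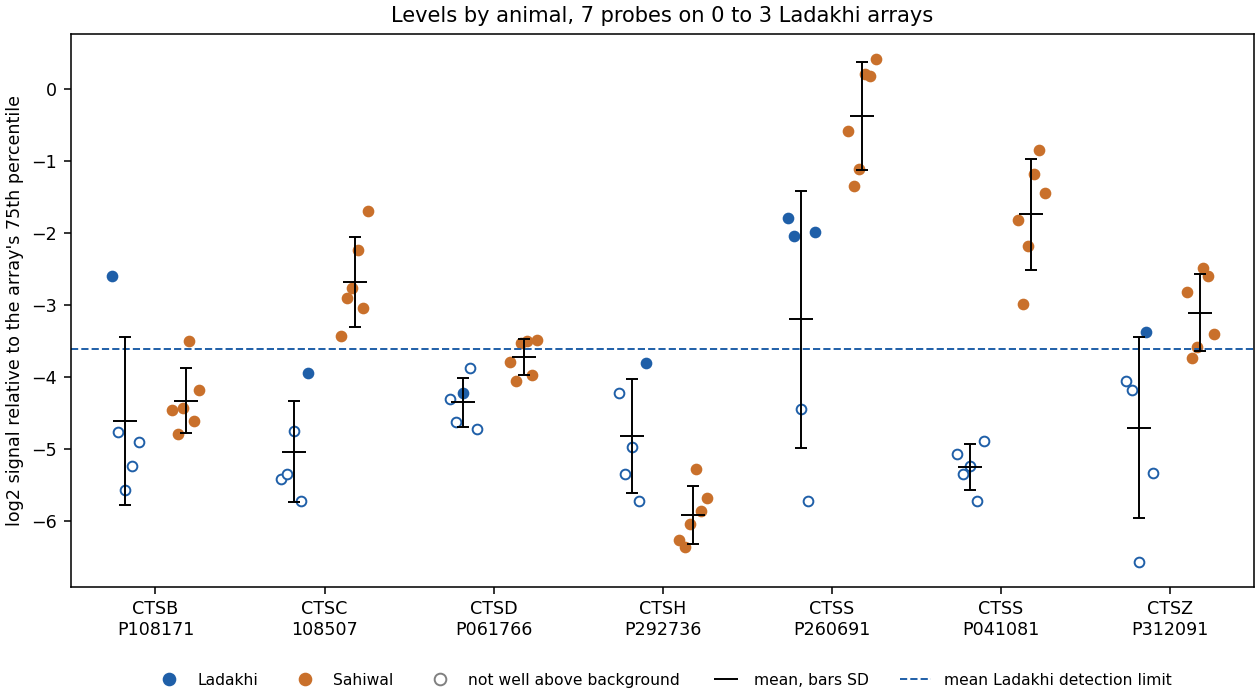
Level by animal of the 6 probes on 1 to 3 Ladakhi arrays and of CTSS probe P041081 (log2 signal relative to the array's 75th percentile), Ladakhi in blue and Sahiwal in orange. Open points are not well above background, bars give the mean and SD, and the dashed line is the mean Ladakhi detection limit of -3.61. For both CTSS probes and for CTSC, the Sahiwal points lie above that line.

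Over the 3772 probes of the array on 1 to 3 Ladakhi arrays, raising dim values gave 17.2% lower and 36.9% higher in Ladakhi. Of the 1391 higher ones, 1383 had a Sahiwal mean under the mean Ladakhi limit, where raising sets the direction. The members with such a mean on 1 Ladakhi array were CTSB A_73_P108171, CTSD A_73_P061766 and CTSH A_73_P292736, and no direction is drawn for them.

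CTSH, an aminopeptidase among the cysteine cathepsins, did not differ past the threshold on its measured probe. Probe A_73_117838, on the minus strand at chr21:24945867-24945926, gave Ladakhi levels of 0.46, -1.001, 0.45, 1.14 and 0.94. The 6 Sahiwal animals gave 0.50, 0.59, 0.64, 1.13, 0.46 and 0.66. The groups overlapped, with Ladakhi animal 2 below all others. The difference was -0.26 (SE 0.36, limma adjusted p = 0.574), and 0.09 without Ladakhi animal 2. The other 2 CTSH probes reached 1 and 0 Ladakhi arrays. Their fitted differences had opposite signs, 1.103 (limma adjusted p = 0.0253) for A_73_P292736 and -1.21 (adjusted p = 0.00138) for A_73_P267136. Both probes entered the fit through Sahiwal. The Sahiwal means of -5.92 and -4.28 both lay under the Ladakhi limit, so no direction or fold is given for either.

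CTSZ, also called cathepsin X, is a carboxypeptidase of monocytes and macrophages. Probe A_73_117154, at chr13:58107097-58107156, gave Ladakhi levels of 0.30, -0.83, -0.29, -0.12 and -0.57. In Sahiwal the levels were 0.01, -0.56, -0.53, 0.33, 0.25 and -0.56. The ranges nearly coincided, and the difference was -0.12 (SE 0.30, limma adjusted p = 0.764). The upstream CTSZ probe A_73_P312091 reached Ladakhi animal 4 alone, at -3.38, inside the Sahiwal range of -3.74 to -2.48. Its difference of -1.60 (limma adjusted p = 0.0190) was not past the threshold with dim values raised (-0.50, adjusted p = 0.179). As the probe entered the fit through Sahiwal, the difference is a description and neither p is independent of that choice.

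CTSK, the collagen-degrading cathepsin known from osteoclasts, was above background on 1 of 3 probes, A_73_P035791, and there in Sahiwal only. Its Sahiwal levels ran from -6.13 to -5.04, all under the detection limit of every Ladakhi array, so a level of that height was not detectable there. The CTSK probes on 0 of 11 arrays were A_73_P316571 and A_73_P401636.

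CTSD, the aspartic protease of the lysosome, differed between breeds according to the probe. Probe A_73_121424, at chr29:51575314-51575373, gave Ladakhi levels of 0.60, 1.27, 0.40, 1.45 and 1.47. Levels in Sahiwal were 1.67, 1.88, 2.37, 1.74, 1.59 and 2.04. All Ladakhi animals lay below all Sahiwal animals, and the probe was well above background on all 11 arrays. CTSD on this probe averaged 1.04 ± 0.50 (SD, 5 animals) in Ladakhi, against 1.88 ± 0.29 (SD, 6 animals) in Sahiwal, a difference of -0.84 (SE 0.29, limma adjusted p = 0.0308), or 1.79-fold lower. Without Ladakhi animal 1, Ladakhi animal 3, Sahiwal animal 3 or Sahiwal animal 6, the adjusted p was 0.0766, 0.0693, 0.0625 and 0.0561 in that order, so the call rests on each of these 4 animals.

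Probe A_73_P375261, at chr29:51575333-51575391, gave Ladakhi levels of 2.10, 2.38, 2.06, 2.09 and 1.88, and Sahiwal levels of 1.47, 1.74, 2.16, 1.68, 1.37 and 1.81. Here Ladakhi was on the higher side, with overlap, and the difference was 0.40 (SE 0.25, limma adjusted p = 0.211). The 2 probes share 41 bases, shifted by 19, and read the same strand of the same message. The first 30 of the shared bases are shown here because both probes contain them.
CTSD, both probes: cctttcttgagtggctgggagccaaagttg

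Within each array, the level of probe A_73_121424 minus that of A_73_P375261 was -1.50, -1.11, -1.66, -0.65 and -0.41 in the Ladakhi animals. In the Sahiwal animals it was 0.21, 0.14, 0.21, 0.06, 0.21 and 0.23. Every Ladakhi value lay below every Sahiwal value. The mean was -1.06 ± 0.53 (SD, 5 animals) in Ladakhi, against 0.18 ± 0.07 (SD, 6 animals) in Sahiwal, a difference of -1.24 (exact two-sided permutation p = 0.00433, the smallest that 462 regroupings allow, and 0.00866 adjusted over 2 pairs). It kept its direction when any 1 animal was left out (-1.40 to -1.09). The pair was chosen after its values were seen. The lower CTSD signal of one probe is therefore not shared by a probe 19 bases away. Probe pairs of genes outside the members were not compared, so how common such a separation is on these arrays is not known.

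**Figure D4:**
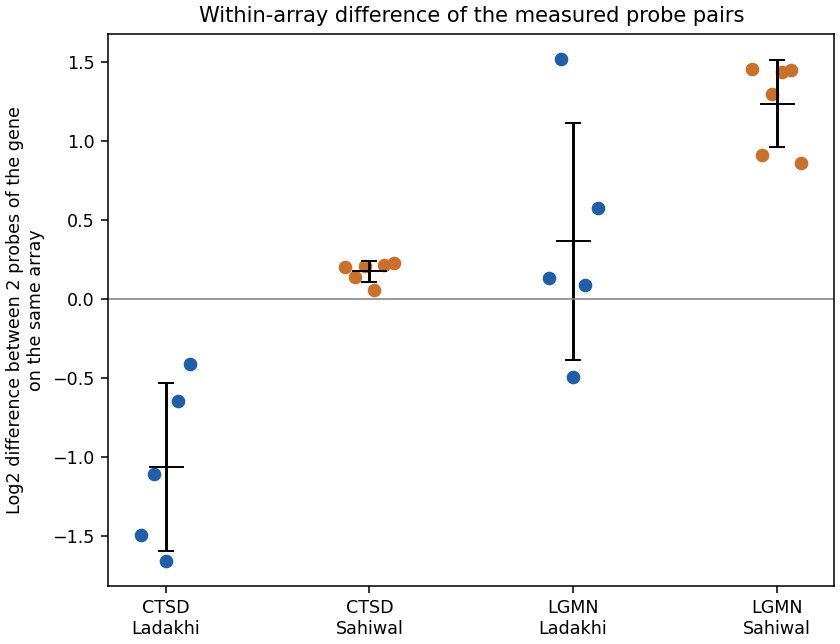
Difference between 2 probes of 1 gene on the same array (log2), by animal, for CTSD (A_73_121424 minus A_73_P375261) and LGMN (A_73_114640 minus A_73_P306446), Ladakhi in blue and Sahiwal in orange. Bars give the mean and SD. For CTSD the 5 Ladakhi points lie below the 6 Sahiwal points.

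The third CTSD probe, A_73_P061766 at chr29:51573766-51573825, reached Ladakhi animal 3 alone, at -4.22, under the Sahiwal range of -4.06 to -3.49. Its difference was -0.63 (limma adjusted p = 0.0646).

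CTSA, the serine carboxypeptidase that also protects beta-galactosidase and neuraminidase in the lysosome, gave Ladakhi levels of -0.84, -1.53, -6.57, -0.81 and -0.41 on probe A_73_104733 (chr13:75428276-75428335). The Sahiwal levels were -0.69, -0.58, -0.57, -1.12, -0.71 and -0.53. Ladakhi animal 3 was not well above background and sat at the lowest value of its array, which 29693 probes shared. The other 4 overlapped the Sahiwal animals. The difference was -1.33 (SE 0.85, limma adjusted p = 0.222) with all animals and -0.20 (adjusted p = 0.598) without Ladakhi animal 3. The second CTSA probe, A_73_P395096, reached 0 Ladakhi arrays, and its Sahiwal levels of -6.57 to -6.01 lay under every Ladakhi limit.

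LGMN, the asparaginyl endopeptidase that cuts after asparagine and processes other cathepsins, had 2 measured probes. On A_73_114640 the Ladakhi levels were -2.41, -0.56, -1.64, -1.65 and -1.41, and the Sahiwal levels were -1.34, -1.62, -0.60, -1.04, -1.75 and -1.50. On A_73_P306446 the Ladakhi levels were -2.55, -2.09, -1.15, -1.74 and -1.99, and the Sahiwal levels were -2.80, -2.53, -1.90, -2.47, -3.21 and -2.37. The groups overlapped on both probes. The differences were -0.23 (SE 0.34, limma adjusted p = 0.616) and 0.64 (SE 0.32, adjusted p = 0.114). The third LGMN probe, A_73_P302991, reached 0 Ladakhi arrays, and its Sahiwal levels of -6.48 to -5.40 lay under every Ladakhi limit.

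The within-array difference of the 2 LGMN probes was compared between the breeds as well. The first minus the second averaged 0.37 ± 0.75 (SD, 5 animals) in Ladakhi, against 1.24 ± 0.28 (SD, 6 animals) in Sahiwal, a difference of -0.87 (exact two-sided permutation p = 0.0346, also after adjustment over the 2 pairs). The ranges overlapped, through Ladakhi animal 2. With 1 animal left out the unadjusted exact p ran up to 0.0762, and it stayed under 0.05 only without Ladakhi animal 2, Sahiwal animal 2 or Sahiwal animal 6.

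Within Sahiwal, where 21 probes were detected on every array, the SD over the 6 animals had a median of 0.43, with a range of 0.15 to 0.77. The median over the 15099 probes seen on all 6 arrays was 0.46. The widest spread was that of the 2 CTSS probes (0.75 and 0.77) and CTSC probe A_73_P416626 (0.76), and the narrowest was that of CTSH A_73_P267136. Between the brightest probes of the 9 genes, the 36 correlations over the 6 Sahiwal arrays had a median r of 0.07, with 19 positive. They ran from -0.92 for CTSD with CTSK to 0.87 for CTSB with CTSH, over arrays that differ in depth and slide. Neither sign prevailed among these correlations. The genes most like them by mean r, among 6659 probes ranked over these 6 arrays, were SULT1A1, SLC6A9, ZRANB1, HSPA1A and CMBL, each at 0.39, with r from -0.57 to 0.98 for single members.

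The inhibitors and partners of the cathepsins were described by 1 probe per gene, the brightest. Over all 3059 measured genes of the array, 14.1% were lower in Ladakhi and 17.8% higher, with a median difference of -0.01. Across 7 lists of lysosomal and partner genes, 16 of 49 measured genes were lower and 7 higher, with a median of -0.44. Of the 7 higher genes, 4 had a Sahiwal mean under the Ladakhi detection limit.

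Among cystatins and other inhibitors, 2 of 4 measured genes fell in Ladakhi and 1 rose. CST3, cystatin C, differed by -1.58 (SE 0.34, limma adjusted p = 0.00254), with -0.06 ± 0.65 (SD, 5 animals) in Ladakhi, against 1.52 ± 0.43 (SD, 6 animals) in Sahiwal. CSTB, the cytosolic cystatin B, differed by -0.93 (adjusted p = 0.0146), a call lost with the animal number as a block (limma adjusted p = 0.0571). CST7, cystatin F of cytotoxic lymphocytes, was higher by 2.25 (adjusted p = 5.32e-05), with a Sahiwal mean of -4.33 under the Ladakhi limit.

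Among other cathepsins and lysosomal peptidases, 1 of 4 measured genes rose and 1 fell. CTSW, a cathepsin of cytotoxic lymphocytes, was higher by 1.15 (limma adjusted p = 0.0488), a call lost under 9 of the other settings and when leaving out any of 8 of the 11 animals. SCPEP1, a serine carboxypeptidase, was lower by 0.95 on the log2 scale (adjusted p = 0.0175), a call lost with normexp background correction (adjusted p = 0.256). CTSL, CTSO and CTSG were above background on 0 arrays of either breed.

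Of the genes for sorting to lysosomes and control of lysosomal genes, 5 of 11 measured fell and 0 rose, with a median of -0.74. They included TFEB, the transcription factor of lysosomal genes, at -1.49 (limma adjusted p = 0.00439), and IGF2R, the larger mannose 6-phosphate receptor, at -1.24 (adjusted p = 0.00993). The hydrolases and their activators moved both ways, with 3 of 13 measured lower and 2 higher and a median of 0.05. PLBD1, a phospholipase B-like protein of myeloid cells, was at -1.92 (adjusted p = 0.00203) and DNASE2, the lysosomal DNase, at -1.04 (adjusted p = 0.0209). The DNASE2 call was lost without Ladakhi animal 2 (adjusted p = 0.0525). MAN2B1, the lysosomal alpha-mannosidase, was at 0.90 (adjusted p = 0.0190), and SMPD1, acid sphingomyelinase, at 1.23 (adjusted p = 0.00860) with a Sahiwal mean under the Ladakhi limit.

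Lysosomal membrane proteins and the proton pump were mixed as well, with 3 of 11 measured genes higher, 2 lower and a median of 0.22. CLN3, a lysosomal membrane protein, differed by 1.62 (limma adjusted p = 0.00729) with a Sahiwal mean under the Ladakhi limit. Within the proton pump, ATP6V0C differed by 1.31 (adjusted p = 0.00711), ATP6V0E1 by -1.10 (adjusted p = 0.0238) and ATP6V1E1 by -0.70 (adjusted p = 0.0384). The ATP6V0E1 call was lost without Ladakhi animal 2 and with the animal number as a block. That of ATP6V1E1 was lost without any of 7 animals and under 5 other settings. These were the same block and 4 closely related scalings or value sets. In the list for cathepsin C, the 2 measured genes were the protease GZMB (-0.48) and NKG7 (1.17), which is not a protease. Neither passed the threshold, and their median was 0.35.

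Class II antigen loading, which CTSS serves, had 3 of 4 measured genes lower and 0 higher, with a median of -1.28. BOLA-DMB, the beta chain of the peptide-exchange molecule, was at -1.34 (limma adjusted p = 0.00760). BOLA-DRA, the class II alpha chain, was at -2.09 (adjusted p = 0.0461) on 4 Ladakhi arrays, 1 spot having an outlier mark, and with 2 saturated Sahiwal spots, a call lost under 7 other settings and without Ladakhi animal 1 or any Sahiwal animal.

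**Figure D5:**
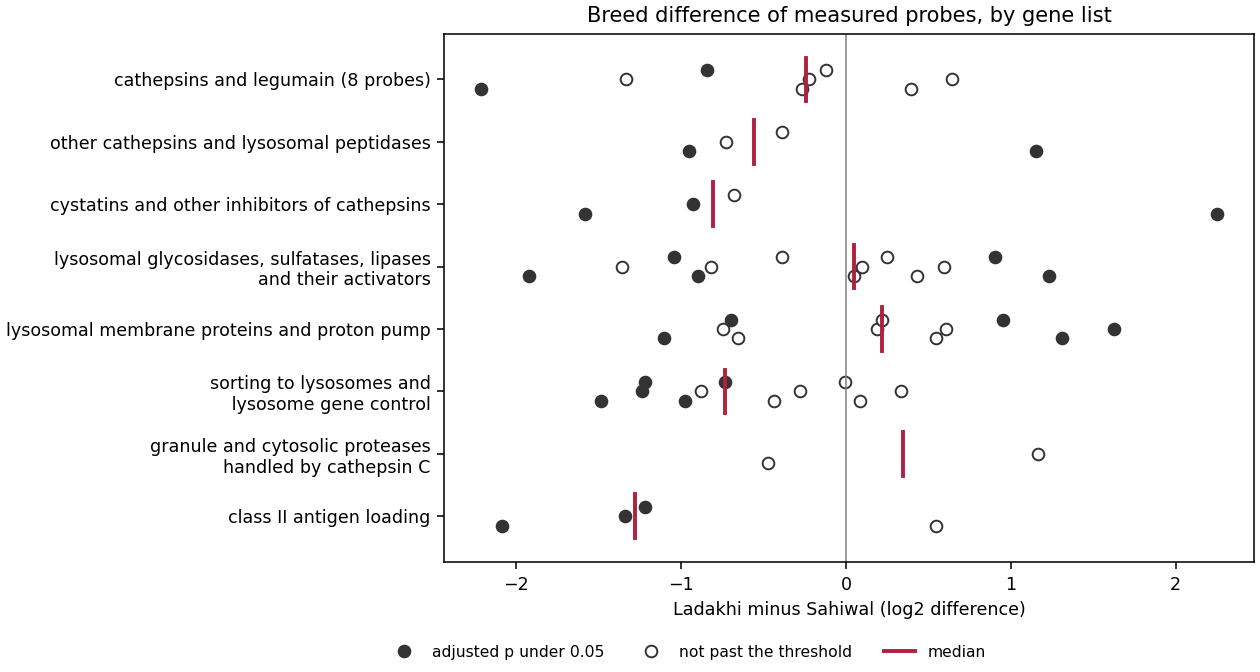
Ladakhi minus Sahiwal difference (log2) of the 8 measured cathepsin and legumain probes and of the measured genes of 7 lists, 1 point per probe or gene. Filled points passed the threshold and red bars are medians. The medians run from -1.28 for class II antigen loading to 0.35 for the list labelled proteases handled by cathepsin C. In that list the measured genes are GZMB and NKG7.

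Markers of blood cell types were described in the same way. Of 5 measured monocyte markers, 3 were lower in Ladakhi and 0 higher, with a median of -1.25, LYZ (lysozyme) being at -1.80 (limma adjusted p = 0.00542). Summed over the 17 monocyte markers, the linear signal relative to the array's 75th percentile was 3.06 to 6.54 in Ladakhi and 6.85 to 16.4 in Sahiwal. Such sums, here and below, weigh the brightest probes most and include background values. The monocyte sum includes 8 markers on 0 Ladakhi arrays. The sums are a description and do not stand for each marker. CD14 was above background on 1 Ladakhi and 6 Sahiwal arrays, but its Sahiwal mean of -3.84 lay under the Ladakhi limit. Of the 13 monocyte markers on all 6 Sahiwal arrays, 4 (CD68, CEBPB, VCAN and TLR4, 30.8%) reached 0 Ladakhi arrays, against 49.1% of such probes over the array, and the Sahiwal means of these 4 lay under the Ladakhi limit. Of 2 measured granulocyte markers, 1 was lower in Ladakhi. S100A8, a granulocyte and monocyte protein, was at -2.20 (adjusted p = 0.00298). S100A12 was at -0.64 (limma adjusted p = 0.171), with 2 saturated Sahiwal spots. The 11 granulocyte markers summed to 1.93 to 5.03 in Ladakhi and 3.90 to 17.9 in Sahiwal, ranges that overlapped.

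Of 14 measured lymphocyte markers, 5 passed the threshold, all of them higher in Ladakhi. For T cells 2 of 7 measured markers were higher and 0 lower, and the sum was 2.79 to 6.52 in Ladakhi and 1.92 to 4.32 in Sahiwal. CD2 was at 2.46 (limma adjusted p = 8.34e-05), with a Sahiwal mean under the Ladakhi limit. For B cells 2 of 4 were higher, BLK being at 1.08 (adjusted p = 0.00617), and for NK cells 1 of 3, GNLY being at 1.70 (adjusted p = 0.0165). Another 14 lymphocyte markers were in the fit without being measured in both breeds. They entered it through Sahiwal alone, so no count of calls is drawn from them and their differences are a description. Where the Sahiwal mean lay above the Ladakhi limit, the differences were negative, on 2 or 3 Ladakhi arrays each. These markers were CD3E (-2.45), CD3G (-1.83), CCR7 (-1.62), TCF7 (-1.12), MS4A1 (-1.60), BANK1 (-1.85) and CD244 (-1.45). For CD5, CD6, CD8B, CD79B, FCRLA, KLRK1 and PRF1 the Sahiwal mean lay under that limit, and no direction is drawn. None of the measured platelet, red cell or dendritic cell markers, 1, 2 and 2 in number, passed the threshold. The part of cell composition in the CTSB, CTSC, CTSS and CTSD differences was not tested, and in these mixed cells fewer cells of a type and less RNA per cell cannot be told apart.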

How the data were processed

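PBMC RNA of 5 Ladakhi and 6 Sahiwal cows was profiled, grouped by the sample titles. The deposited intensities are, per the file headers, processed signals of the Feature Extraction software (version 12.0.1.1 for Ladakhi, 9.5.3.1 for Sahiwal), background-subtracted and detrended, with surrogates for signals not above background. The authors' deposited value table holds log2 values centred per probe, with scaling between arrays unstated and column medians of 1.60 to 2.31 in Ladakhi and -0.73 to 0 in Sahiwal. Every column fitted a scanner file other than its own, always within the breed, so the numbering of animals is unsettled and the table served only as an alternative for the breed comparison.

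Control spots were left out, 294 outlier-marked spots were set missing, and spots of 1 probe were averaged. Breeds were compared in R 4.3.3 with limma 3.58.1 (lmFit, eBayes), without covariates. Probes passing the background test on 4 or more arrays in one breed or the other were tested. The test was checked on simulated data. Because most probes were not detected on the Ladakhi arrays, the percentile was taken over the 2705 probes detected on all 11 arrays. The number of arrays limits the precision. Accessions of 26740 probes matched RefSeq genes of ARS-UCD2.0, from which only names were taken. The members and gene lists were chosen with earlier results of these data known. All probes of the 9 genes are named, then in each pathway list the 2 genes with the largest called difference in each direction, in each cell type list 1, and the 5 genes most correlated with the members. CTSL, CTSO, CTSG, GZMB, NKG7, and the monocyte and lymphocyte markers outside the measured ones were named after their values were seen. Alternatives covered background correction, scaling, filter, dim values, blocks, weights, the value table and leaving out each animal.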

Additional observations from a re-analysis of the deposited data

Results flagged for a closer look

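Of 33 groups of animals checked, 3 held 1 animal far from the others. The critical value used is at the 95% level, so chance flags about 5% of groups. For CTSA probe A_73_104733, Ladakhi animal 3 lay at -6.57 and the next lowest Ladakhi animal at -1.53. That spot was at the shared lowest value of its array. On the same probe, Sahiwal animal 4 lay at -1.12 and the next lowest at -0.71. For CTSH probe A_73_117838, Sahiwal animal 4 was the highest at 1.13, and the next was 0.66.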

How the results depend on the processing

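The lower CTSB signal of A_73_115425 kept its direction and passed the threshold under every alternative run. Of 647 values recomputed under settings other than leaving out an animal, 606 kept direction and side of the threshold, 29 lost the call, 5 gained it and 7 changed sign, and of 396 with 1 animal left out these numbers were 361, 32, 1 and 2. The animal numbers do not pair the samples (correlation of same-numbered animals -0.05 to 0.02). The setting with the number as a replicate block also leaves out Sahiwal animal 6, whose number no Ladakhi animal has. Measured members called lower then came to 1, CTSB A_73_115425 at -2.16 (limma adjusted p = 0.00601). The CTSD A_73_121424 call was lost (-0.81, limma adjusted p = 0.106), and list genes called lower came to 10. With 1 animal left out, members called lower ranged from 1 to 2 and higher from 0 to 0, measured probes lower from 488 to 583 and higher from 631 to 743, and list genes lower from 11 to 18 and higher from 5 to 9. Normexp background correction moved the median of measured probes to 0.29, called 1487 measured probes, 11 list genes and 1 member higher (LGMN A_73_P306446), and turned CTSB A_73_P108171 to 1.05, CTSD A_73_P061766 to 0.64, CTSZ A_73_P312091 to 0.22 and LGMN A_73_114640 to 0.29. It gave -0.50 for the LGMN probe pair (exact permutation p = 0.0779). With the slide as a random block, the same LGMN probe made 1 member higher. The block correlation was -0.11 and each slide held 1 breed, so this setting does not take a slide effect out of the breed difference. Raising dim values turned CTSB A_73_P108171 to 0.86 and CTSD A_73_P061766 to 0.12, and quantile normalization turned CTSH A_73_P292736 to -0.15. With 1 animal left out, CTSH A_73_117838 ranged from -0.45 to 0.086, CTSZ A_73_117154 from -0.27 to 0.0086 and the LGMN pair from -1.16 to -0.66. The causes were not tested. Recentred scalings and the probe pairs were chosen after seeing the data. Dim Ladakhi signal limits what can be said of the 15 members not measured in both breeds.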
